A study of Mus musculus with 912 samples.

Results

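Voltage-gated calcium and sodium channel genes were described in single hippocampal nuclei of the mouse. The members were chosen by symbol alone, as every gene named Cacna1 with a letter, Cacna2d, Cacnb or Cacng with a digit, or Scn with a number and a or b. This rule found 40 of the 42802 genes in the count table. They comprised 10 sodium channel α subunits, 4 sodium channel β subunits, 10 calcium channel α1 subunits, 4 α2δ subunits, 4 calcium channel β subunits and 8 γ subunits.

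A voltage-gated channel is a pore that opens when the membrane depolarises. Sodium channel α subunits form the pore that carries the upstroke of the action potential, and their β subunits alter gating and placement of the pore. Calcium channel α1 subunits form the calcium pore, the intracellular β subunits and extracellular α2δ subunits bring it to the membrane and tune it, and most γ subunits are known in brain as partners of AMPA-type glutamate receptors. In hippocampal neurons calcium entry through such channels links firing to transmitter release and to gene transcription.

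Nuclei came from the hippocampus of wild-type female C57BL6 mice aged 7.75 to 9 weeks, and each was sequenced on its own by the SmartSeq2 method. In the first cohort, mice stayed in the home cage (HC) or were taken 1 h after a short visit to an unfamiliar environment, and nuclei were sorted by antibodies to NEUN, PROX1, CTIP2 and FOS, the protein of an immediate early gene that marks recently active neurons. In the second cohort, dentate granule (DG) nuclei were taken 4 h or 5 h after such a visit, or after a second visit, to the same context (A>A) or to another one (A>C), made 4 h after a visit to context A and followed by 1 h in the home cage. All second-cohort nuclei had been sorted as PROX1+ CTIP2+ and also as positive for ARC, another activity-induced protein, so they hold no unselected granule cells. FOS+ and FOS- nuclei were separate at 1 h, in A>A and in A>C, whereas HC, 4 h and 5 h nuclei were FOS-. Cell types were those named in the labels: DG, CA1, CA3, subiculum (Sub), VIP interneurons (VIP), Ivy cells, Pvalb interneurons and thalamus (Th). Mice were told apart by exposure and mouse number in the labels, and in the first cohort also by date. In A>A, nuclei of mice 19 and 20 were from different sort dates and were pooled by mouse number.

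Of 912 nuclei, 818 had at least 100000 aligned reads and 4000 genes. Of these, 783 remained after 35 FOS- nuclei of the first cohort with high Arc were left out. Second-cohort nuclei were not filtered on Arc. The 783 nuclei came from 13 mice in the first cohort and 18 in the second. Their totals ran from 142275 to 5885216 counts, with a median of 1042313 in the first cohort and 1655208 in the second. Median totals of the DG groups ranged from 426841 at 5 h to 2469299 at 4 h, so groups differed in depth. The granule cell marker Prox1 averaged 5.23 log2(TPM + 1) over DG mice, from 4.01 to 6.89, and summed interneuron markers averaged 17.4 in VIP, 19.3 in Ivy, 18.1 in Pvalb and at most 3.93 in the other types. Some small libraries did not carry the markers of their label. Of the 6 baseline VIP libraries, 4 sorted as PROX1+ CTIP2- had Vip between 8.31 and 12.1, and 2 of 2 nuclei each were at 0 for Vip, Crh and Prox1. The first of these, from a 1 h mouse and sorted as PROX1- CTIP2+, was also at 0 for Calb2. Of the Ivy cell markers it had Npy at 10.5, but Nos1 at 0.338 and Lhx6 at 0.521. Npy was not confined to Ivy cells and averaged 3.88 over DG mice. The other VIP library at 0 for Vip, from an HC mouse and sorted as PROX1- CTIP2-, had Calb2 at 4.13. Summed Ivy markers were 14.9, 13.8 and 2.03 in the 3 Ivy mice, and the last had Npy at 0 and Vip at 4.36. The CA1 marker Mpped1 averaged 4.14 in Ivy and 6.84 in Pvalb, beside 4.17 in CA1. The CA1 markers Fibcd1, Wfs1 and Pou3f1 went the other way. They averaged 0.053, 0.071 and 0 in Ivy and 0, 0.227 and 0 in Pvalb, beside 2.44, 3.50 and 1.56 in CA1. Results that rest on VIP are therefore also given without the VIP libraries at 0 for Vip, a choice made after the data were seen. All Ivy libraries were kept in those results, including the one with Npy at 0 and Vip at 4.36. For tests, counts were summed per mouse, cell type and FOS group, and sums of at least 2 nuclei gave 63 libraries. In such sums, fewer nuclei with a transcript and less RNA per nucleus cannot be told apart.

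Promoter sequences are shown for the 3 channel genes whose levels passed a test, so that their annotated start sites can be compared. Cacna1e, encoding the R-type calcium pore, lies on chromosome 1 at 154390806 to 154884785. Cacna2d3, encoding an α2δ subunit, lies on chromosome 14 at 28904943 to 29722775, and Cacnb1, encoding a calcium channel β subunit, on chromosome 11 at 98001508 to 98023034. All are on the minus strand of GRCm38.p6. Each sequence, from RefSeq, covers 250 bases before and 50 bases after an annotated start, 5′ to 3′ on the gene's strand. Capitals mark GC boxes, the letters GGGCGG on either strand. The windows are chr1:154725871-154726170 for Cacna1e, chr14:29721815-29722114 for Cacna2d3, and chr11:98022578-98022877 and chr11:98018323-98018622 for the first and the second start of Cacnb1.
Cacna1e: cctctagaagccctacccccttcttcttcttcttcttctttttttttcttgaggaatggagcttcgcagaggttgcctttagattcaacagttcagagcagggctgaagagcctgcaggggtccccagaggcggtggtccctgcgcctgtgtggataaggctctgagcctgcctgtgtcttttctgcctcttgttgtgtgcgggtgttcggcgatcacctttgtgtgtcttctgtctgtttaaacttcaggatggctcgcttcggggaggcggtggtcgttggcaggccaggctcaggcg
Cacna2d3: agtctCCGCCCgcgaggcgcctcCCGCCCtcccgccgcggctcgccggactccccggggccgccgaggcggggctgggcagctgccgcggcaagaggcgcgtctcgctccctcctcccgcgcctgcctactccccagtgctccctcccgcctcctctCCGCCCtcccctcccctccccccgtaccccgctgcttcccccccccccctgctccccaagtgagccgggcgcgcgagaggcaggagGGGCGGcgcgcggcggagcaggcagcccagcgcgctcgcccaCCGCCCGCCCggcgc
Cacnb1 start 1: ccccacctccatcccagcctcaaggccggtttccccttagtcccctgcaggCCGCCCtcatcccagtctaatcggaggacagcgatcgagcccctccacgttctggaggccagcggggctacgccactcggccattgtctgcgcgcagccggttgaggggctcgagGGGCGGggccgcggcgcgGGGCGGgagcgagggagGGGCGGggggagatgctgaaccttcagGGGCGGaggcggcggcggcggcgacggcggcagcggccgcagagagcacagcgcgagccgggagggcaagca
Cacnb1 start 2: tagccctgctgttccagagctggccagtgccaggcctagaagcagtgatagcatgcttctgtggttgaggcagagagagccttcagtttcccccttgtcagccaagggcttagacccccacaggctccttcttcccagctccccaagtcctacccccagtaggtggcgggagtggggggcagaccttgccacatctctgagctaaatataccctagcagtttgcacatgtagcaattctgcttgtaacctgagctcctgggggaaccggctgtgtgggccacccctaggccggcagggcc
The Cacna1e window held 0 GC boxes with 55.3% G and C, whereas that of Cacna2d3 held 6, of which a pair overlapped, with 81.3% G and C. The first Cacnb1 start had 5 GC boxes and 73.7% G and C, and the second had 0 and 59.3%. The Cacna1e window lies inside the gene, far from its 5′ end, whereas the Cacna2d3 and first Cacnb1 windows lie near theirs. These windows thus hold unlike kinds of start. A GC box was present in 16 of the 41 windows of members and in 35.7% of all 32851 windows. The cAMP response element TGACGTCA was in 0 of the 41 windows and in 1.79% of all windows. The AP-1 motif TGANTCA was in 1 of the 41 and in 7.81% of all. Both motifs were searched on both strands, and 30 of the 40 members had a window. The files give counts per gene and do not say which start was used.

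Baseline levels were taken from FOS- nuclei of HC and 1 h mice, as the mean over nuclei of log2(TPM + 1) in each mouse and then over mice. TPM is scaled for transcript length, so it is used wherever genes are compared with each other. Baseline nuclei came from 6 CA1, 3 CA3, 3 DG, 3 Ivy, 5 Sub and 6 VIP mice, and from 1 mouse each for Pvalb (2 nuclei) and Th (5 nuclei). In the 6 types with at least 3 mice, 18 members had a mean above 1 in every type and 13 had a mean below 1 in every type. The number above 1 was 25 in CA1 and CA3, 23 in Ivy and Sub, 22 in DG and 21 in VIP. Cacna1e was the most abundant by counts and was counted in 778 of 783 nuclei. At the other end, Cacng1, a muscle γ subunit, had 0 counts, Cacna1s, the skeletal muscle pore, had 1, and the sensory neuron sodium channels Scn11a and Scn10a had 1 and 9.

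**Figure D1:**
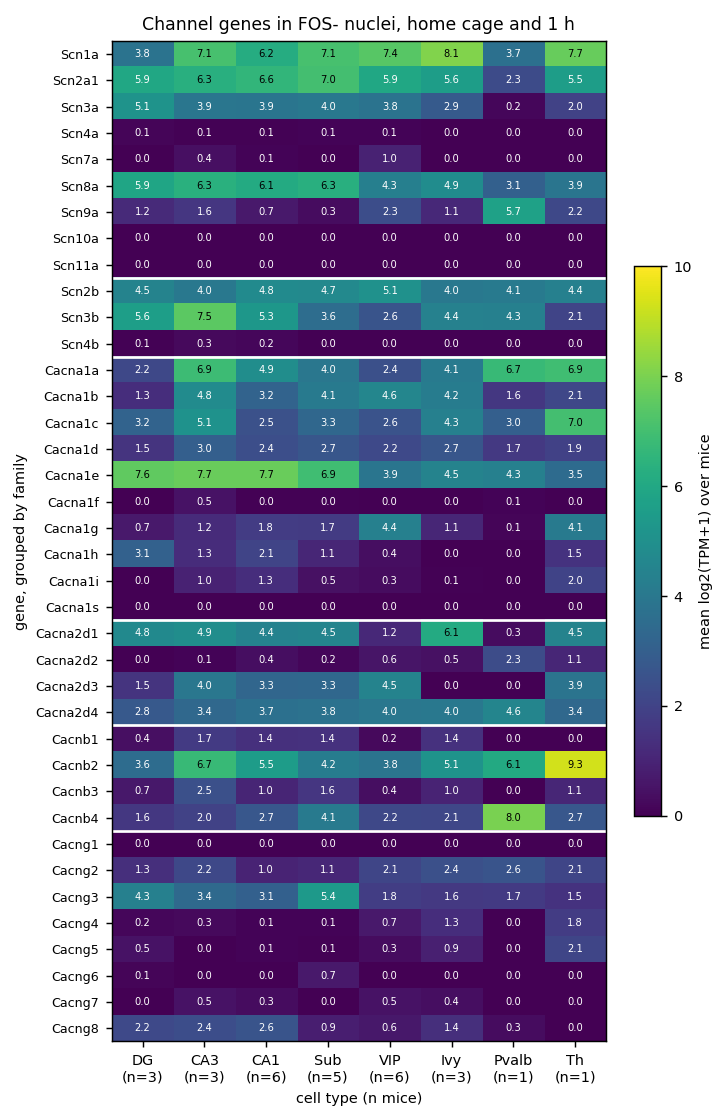
Mean log2(TPM + 1) of the channel genes reported here (vertical) in 8 cell types (horizontal, with the number of mice) in baseline nuclei. Cacna1e was between 6.92 and 7.73 in CA1, CA3, DG and Sub and 3.88 in VIP, while Cacng1, Scn10a and Scn11a were at 0 throughout.

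Among sodium channel pores, Scn1a, Scn2a1 (Scn2a in RefSeq), Scn3a and Scn8a carried most of the signal and the other 6 were low. Scn8a, which encodes the pore concentrated at the axon initial segment and nodes, was 5.88 ± 0.19 (SD, n = 3 mice) in DG, 6.11 ± 0.30 (n = 6) in CA1 and 4.31 ± 1.19 (n = 6) in VIP, on the log2(TPM + 1) scale. Scn2a1, an axonal pore of excitatory neurons, was between 5.57 in Ivy and 7.00 in Sub over the 6 types. Scn1a, the pore best known from fast-firing interneurons, averaged 8.10 ± 0.98 in Ivy, 7.39 ± 1.59 in VIP, 7.10 ± 0.62 in CA3, 7.08 ± 1.60 in Sub, 6.20 ± 1.03 in CA1 and 3.80 ± 1.25 in DG. The 3 DG mice were at 4.88, 4.09 and 2.43, and the 6 VIP mice at 9.53, 5.53, 6.95, 9.14, 6.63 and 6.55 for Scn1a. On this scale the DG values were thus all below the VIP values. In the tests on summed counts given below, edgeR did not call Scn1a between DG and VIP, and its mice overlapped. By contrast, limma on mean log2 values called it, at -3.59 (SE 0.877, adjusted p = 0.0357). Neighbouring types other than DG in that order differed by less than their spread. Scn3a, a pore more prominent in development, was 5.13 ± 0.43 in DG and from 2.85 to 3.99 in the other 5 types. Scn9a, a pore best known from sensory neurons, was highest in the single Pvalb mouse at 5.70, and its next highest mean was 2.35 ± 0.97 in VIP. The muscle pore Scn4a stayed at or below 0.12 in every type.

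By share of summed sodium α TPM within a mouse, Scn1a led in Ivy at 69.3% ± 7.15, in VIP at 50.4% ± 14.9, in CA3 at 40.5%, in Sub at 38.9% and in CA1 at 36.8%. In DG, Scn2a1 led with 35.6% ± 7.90 (SD, n = 3). By CPM, the gene's count scaled to the library total and not for length, the leader was instead Scn8a in CA1 (35.7%) and CA3 (33.8%) and Scn2a1 in Sub (37.3%) and VIP (33.1%). Among the β subunits, Scn3b held 79.9% of the family's TPM in CA3, 65.1% in CA1 and 62.0% in DG, whereas Scn2b led in VIP with 63.4% ± 24.5 (n = 6). The level of Scn3b was 7.48 ± 0.69 in CA3, 5.60 ± 1.25 in DG and 2.60 ± 1.56 in VIP. Scn2b varied less between types, from 3.99 in Ivy to 5.06 in VIP. Scn4b was at most 0.27 in every type.

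Of the calcium pores, Cacna1e was the leading gene in 5 of the 6 types. It made up 59.2% ± 11.3 of calcium α1 TPM in DG, 52.9% ± 17.3 in CA1, 49.6% ± 9.16 in Sub, 37.7% ± 9.54 in CA3 and 32.1% ± 42.0 in Ivy. In VIP the leading pore was Cacna1g, a T-type (low voltage-activated) channel, at 44.0% ± 27.9 with single mice from 6.40% to 87.3%. The leading VIP pore was instead Cacna1b, with 32.5%, when shares were taken from CPM. Cacna1a, the P/Q-type pore of presynaptic terminals, averaged 6.87 ± 1.18 in CA3, 4.90 ± 1.50 in CA1 and 2.16 ± 0.47 in DG. Its 3 DG mice were at 2.68, 1.76 and 2.05 and its 3 CA3 mice at 5.61, 7.03 and 7.96, without overlap. Cacna1b, the N-type presynaptic pore, ranged from 1.32 ± 1.33 in DG to 4.84 ± 1.34 in CA3. The L-type pores Cacna1c and Cacna1d, which couple calcium entry to transcription, were 3.19 ± 0.77 and 1.51 ± 0.93 in DG and 5.09 ± 0.86 and 3.02 in CA3. Of the T-type genes in DG, Cacna1h was 3.10 ± 0.81, Cacna1g 0.67 ± 0.36 and Cacna1i 0.00, while VIP had Cacna1g at 4.37 ± 2.39 and Cacna1h at 0.35 ± 0.56.

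The accessory calcium channel genes also differed in which member led. Among α2δ subunits, Cacna2d1 held 74.4% ± 14.7 of the family's TPM in DG and 86.3% ± 11.3 in Ivy, and Cacna2d3 held 64.4% ± 32.4 in VIP. Cacna2d4 was even across types, from 2.78 ± 0.44 in DG to 4.01 ± 0.67 in Ivy, and had 19635 counts spread over 761 of 783 nuclei. Cacna2d4 overlaps Lrtm2, and because the libraries carry no strand, reads of overlapping genes cannot be told apart. By TPM, Cacnb2 led the β subunits in all 6 types, from 47.7% in Sub to 81.2% in Ivy, but by CPM Cacnb4 led in Sub with 42.9%. Cacnb4 reached 8.00 in the Pvalb mouse, and was next highest in Sub at 4.10 ± 1.53. The AMPA receptor partner Cacng3 held 90.7% ± 12.3 of γ subunit TPM in Sub and 82.0% ± 6.37 in DG, and Cacng2 (stargazin) held 41.6% ± 50.8 in Ivy, where the 3 mice ran from 0.18% to 98.3%. Cacng3 averaged 5.43 ± 1.11 in Sub and 4.34 ± 0.83 in DG, and Cacng8, another AMPA receptor partner, was 2.59 ± 1.34 in CA1 and 0.65 ± 1.05 in VIP. Cacng4, Cacng5, Cacng6 and Cacng7 had means of at most 1.29 in the 6 types.

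**Figure D2:**
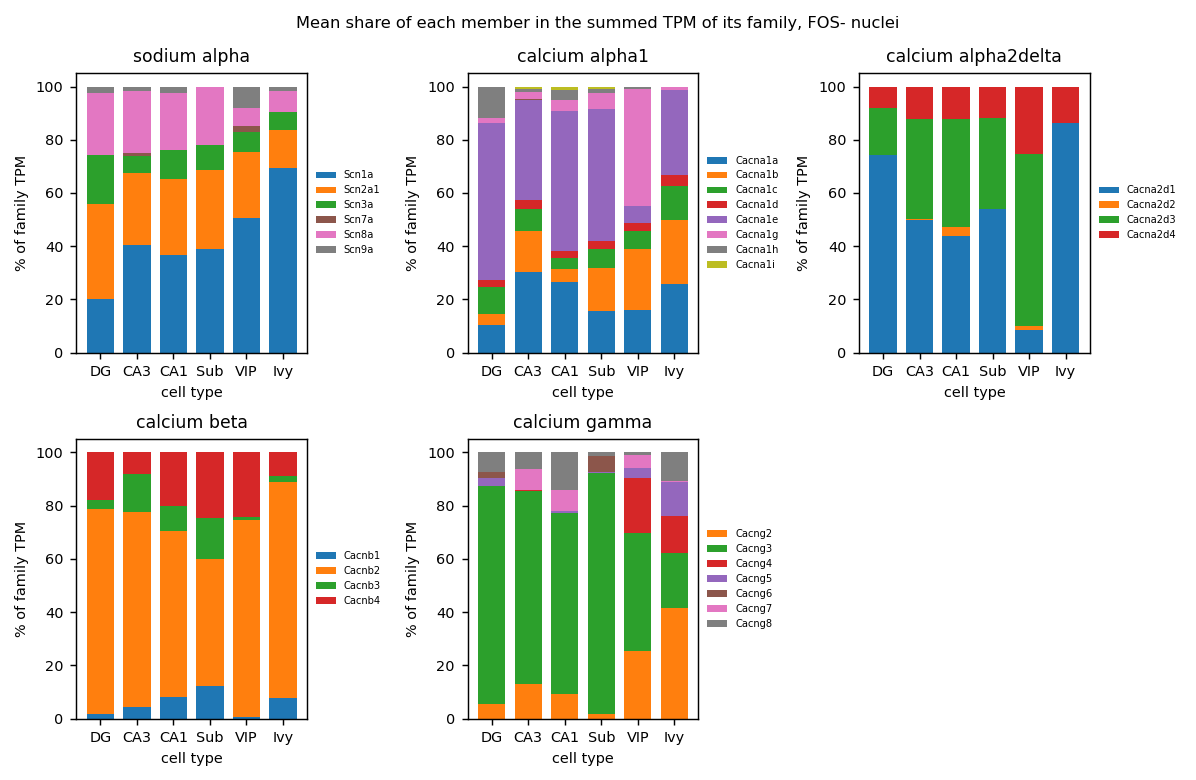
For 5 of the families, stacked bars give the mean percent of the family's TPM held by each member (vertical, percent) in the 6 types with at least 3 mice (horizontal). By TPM Cacnb2 led the β subunits in all 6, while the leading α2δ gene was Cacna2d1 with 74.4% in DG and Cacna2d3 with 64.4% in VIP.

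Cell types were compared at baseline with edgeR's quasi-likelihood test on sums per mouse, over 16617 genes of which 33 were members. The 26 libraries came from 13 mice, of which 7 gave more than 1 type, and the model treated libraries of a mouse as independent. Ivy and VIP shared 2 mice, VIP and CA1 shared 2, and DG shared 0 with any other type. The 2 mice shared by VIP and CA1 were those whose VIP libraries were at 0 for Vip. The other VIP libraries came from sort dates that gave no tested CA1 or DG library. For them, cell type cannot be told apart from mouse and sort date in comparisons with CA1 or DG. Between DG and VIP, 1 of 33 members was called at a Benjamini-Hochberg adjusted p under 0.05, against 0.722% of all genes. Between VIP and CA1 it was again 1, against 0.758%, and between Ivy and VIP 1, against 0.12%. In the same order DESeq2 called 5, 3 and 5 members (6.71%, 7.01% and 16% of all genes) and limma on mean log2 values 4, 2 and 2 (1.23%, 1.24% and 0.964%). With the mouse as a correlated block, added after the data were seen, limma again called 4, 2 and 2, at a within-mouse correlation of 0.0082. Between DG and CA1 edgeR called 0 members (0.199% of all genes), and before adjustment 6 members had p under 0.05 (7.97%). There DESeq2 called 4 (2.87%) and limma 0 (0.519%). Between Sub and CA1 edgeR called 0 (0.012%), and before adjustment 3 had p under 0.05 (11.3%), with 3 called by DESeq2 (4.45%) and 0 by limma (0.143%). Between CA3 and CA1 edgeR called 0 (0%), and before adjustment 0 had p under 0.05 (6.46%), with 0 called by DESeq2 (3.58%) and 0 by limma (0.584%).

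Cacna1e, the R-type pore, was lower in VIP interneurons than in DG and CA1 neurons. The 6 VIP mice had 3.21, 4.02, 5.03, 3.26, 4.17 and 3.55 log2(TPM + 1), with a mean of 3.88 ± 0.69. The 3 DG mice had 7.65, 7.19 and 7.82, and the CA1 mice 7.42, 7.98, 8.61, 8.28, 6.62 and 7.30. Every DG and CA1 mouse was thus above every VIP mouse. In edgeR's quasi-likelihood test the log2 fold change was 4.10 (SE 0.705, Benjamini-Hochberg adjusted p = 0.0038) for DG over VIP, at 1022 against 85.33 CPM. For VIP against CA1 it was -4.08 (SE 0.656, adjusted p = 0.00183 in edgeR), at 85.33 against 1295 CPM. Both calls were kept without any single mouse and in each alternative tried. Without the VIP libraries at 0 for Vip the log2 fold changes of Cacna1e were 3.63 (SE 0.736, adjusted p = 0.022 in edgeR) and -3.64 (SE 0.693, adjusted p = 0.0117 in edgeR). The VIP libraries that remained shared no mouse or sort date with the CA1 or DG libraries. The 3 Ivy mice, the other interneuron type, spread widely for Cacna1e at 6.68, 4.58 and 2.16. No annotated gene overlaps Cacna1e, so its reads have no such second source.

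Cacna2d3 had 0 counts in the 3 Ivy mice tested, while 5 of the 6 VIP mice had it. The VIP mice were at 0, 5.71, 5.18, 5.12, 5.33 and 5.55 log2(TPM + 1), and the mouse at 0 was the 1 h mouse whose 2 nuclei, sorted as PROX1- CTIP2+, lacked all VIP markers. The Ivy mice gave 7 nuclei in all, and VIP had 7419 counts, at 328.7 CPM. With 3 counts over the Ivy group as the limit that 0 allows, Cacna2d3 was at least 578-fold lower in Ivy (edgeR adjusted p = 0.0235). The groups overlapped through the VIP mouse at 0. Leaving out any 1 of the Ivy mice ended the call, with adjusted p = 0.115, 0.0777 and 0.115 in edgeR. For 2 of them the mouse's VIP library was left out too. Without the VIP libraries at 0 for Vip, Cacna2d3 was called with adjusted p = 0.000704 in edgeR. In the 3 HC mice that gave a single Ivy nucleus each, which were not tested, it had 4, 0 and 1 counts. Cacna2d3 contains Lrtm1 and several antisense genes, and the reads of these cannot be separated from its own.

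Cacna2d1, the α2δ subunit that is the target of gabapentin, had the opposite order between VIP and Ivy. VIP mice had 0, 1.68, 1.06, 0.14, 1.94 and 2.16 log2(TPM + 1), DG mice 4.19, 4.94 and 5.14, and Ivy mice 5.66, 4.07 and 8.66. In CA1 the mice had 3.36, 4.02, 2.91, 5.70, 5.71 and 4.92. All DG, CA1 and Ivy mice were above all VIP mice. The log2 fold change of Cacna2d1 was 4.45 (SE 1.054) for Ivy over VIP, 3.10 (SE 1.018) for DG over VIP and -3.20 (SE 0.932) for VIP against CA1. None passed edgeR's test, with adjusted p = 0.0885, 0.182 and 0.105 in that order. All 3 passed in limma on mean log2 values, with adjusted p = 0.0032, 0.0324 and 0.0146. Without the VIP libraries at 0 for Vip the edgeR adjusted p of Cacna2d1 was 0.0253, 0.158 and 0.0723 in that order.

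**Figure D3:**
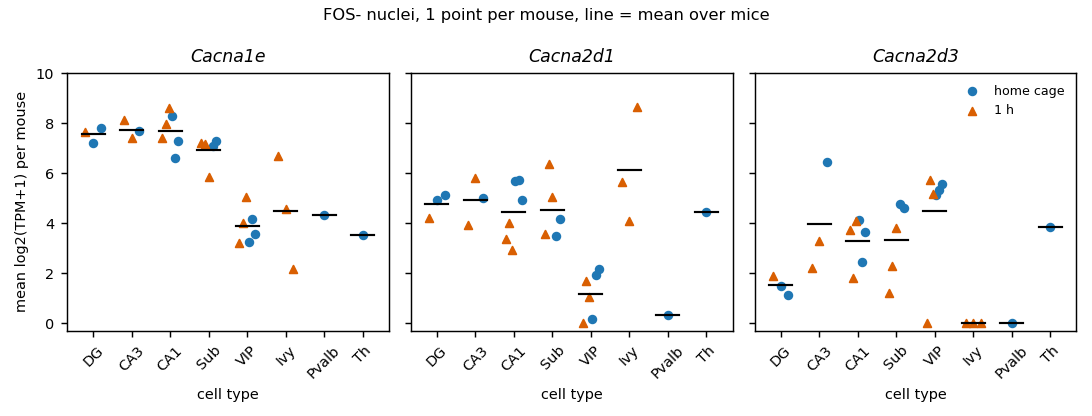
Each point is 1 mouse (circles HC, triangles 1 h, both FOS-) at its mean log2(TPM + 1) of Cacna1e, Cacna2d1 or Cacna2d3 (vertical) in each cell type (horizontal), with a line at the mean. For Cacna1e all VIP mice lie at 5.03 or below and all DG and CA1 mice at 6.62 or above, and for Cacna2d3 the Ivy mice lie at 0.

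Some further members did not overlap between types without passing edgeR's test. Overlap was judged here and in the comparisons that follow on CPM with edgeR's scaling factors. Between DG and VIP, 3 members were higher and 1 lower in every DG mouse, where 6.03% and 2.14% of all genes were. These included Cacna1h at a log2 fold change of 2.91 (SE 1.928, adjusted p = 0.61 in edgeR) and Cacna2d4 at -0.99 (SE 0.640, adjusted p = 0.593 in edgeR). Between DG and CA1, Cacna1a was lower in every DG mouse, at -1.67 (SE 1.225, adjusted p = 0.907 in edgeR), and 2.34% of all genes had that pattern. Between Ivy and VIP, 1 member was higher (1.24% of all genes), Cacna2d1, and 1 lower (1.87%) in every Ivy mouse. The lower one was Scn2b, with a log2 fold change of -1.42 (SE 0.758, adjusted p = 0.35 in edgeR).

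Next, nuclei with and without FOS protein were compared 1 h after the visit, in each type outside the DG. In CA1, edgeR called 0 of 27 tested members (0% of all genes), and before adjustment 1 had p under 0.05 (4.34% of all genes), while DESeq2 called 1 (1.62%) and limma 0 (0%). The median log2 fold change of FOS+ over FOS- in CA1 was -0.255 for members and -0.009 for all genes. In Sub, edgeR called 0 of 27 (0%), with 1 under 0.05 before adjustment (6.71%), 0 in DESeq2 (3.46%) and 0 in limma (0%), and the medians were 0.105 and -0.019. In CA3, edgeR called 0 of 31 (0%), with 0 under 0.05 before adjustment (4% of all genes), 0 in DESeq2 (3.6%) and 0 in limma (0%), and the medians were 0.001 and 0.025. In VIP, edgeR called 0 of 30 (0%), with 2 under 0.05 before adjustment (4.84%), 1 in DESeq2 (1.62%) and 0 in limma (0%), and the medians were -0.056 and 0.046.

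Members whose VIP mice did not overlap between FOS groups included a pair of T-type pores. The first of the 3 FOS- mice given below is the one whose 2 nuclei lacked all VIP markers, and without the VIP libraries at 0 for Vip edgeR again called 0 members. Cacna1i, a T-type pore, had 0 counts in the 3 FOS- mice and 55.4 and 41.8 CPM in the 2 FOS+ mice, with counts in 9 of 27 FOS+ nuclei. HC mice lay between at 5.01, 20.4 and 2.26 CPM. The difference was at least 174-fold (adjusted p = 0.971 in edgeR, 0.000159 in DESeq2). Cacna1h had 0 counts in the 3 FOS- mice and 16.1 and 25.4 CPM in the FOS+ mice, at least 71.2-fold more (adjusted p = 0.971 in edgeR), and HC mice spread over 0, 38.5 and 95.0 CPM. Cacnb3 was at 0, 4.97 and 0 CPM in FOS- and 32.5 and 18.4 in FOS+ (log2 fold change 3.88, SE 2.625). Scn2a1 was at 409.9, 487.6 and 428.0 CPM in FOS- and 551.3 and 885.0 in FOS+ (0.64, SE 0.50). On the log2(TPM + 1) scale Scn2a1 differed by -1.12 and 2.39 in the 2 mice that gave both kinds of VIP nuclei, so its direction was not shared. In all, 5 members were higher and 1 lower in every FOS+ VIP mouse, against 14.8% and 4.87% of all genes. Median totals were 344915 counts per nucleus in FOS- and 599311 in FOS+ VIP nuclei, and the part of depth in these differences was not tested.

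In Sub, 1 member was lower in every FOS+ mouse (4.21% of all genes), Scn2b, at 89.8, 18.9 and 40.9 CPM against 157.3, 419.7 and 162.3 in FOS-. Its log2 fold change was -2.34 (SE 1.057, adjusted p = 0.695 in edgeR), and the 2 HC mice were at 262.7 and 37.0. In CA3, 4 members were higher and 2 lower in both FOS+ mice (16.1% and 14.2% of all genes). Cacna1a was 64.6 and 184.9 CPM in FOS- and 183.2 and 387.6 in FOS+ (log2 fold change 1.19), and its mice overlapped without the scaling factors. Cacna1g was 42.4 and 7.45 CPM in FOS- and 2.48 and 0 in FOS+ (-4.34, SE 2.670, adjusted p = 0.80 in edgeR), and Scn1a was 317.2 and 460.7 against 110.7 and 298.5 (-0.95). Cacna1h (log2 fold change 1.80) and Cacna2d3 (471 counts in FOS- and 2117 in FOS+) also lay higher in both FOS+ mice. On mean log2(TPM + 1) these directions did not hold, with differences in the 2 CA3 mice of -0.05 and -0.24 for Cacna1a, 0.44 and -0.14 for Cacna1h and 1.97 and -1.0 for Cacna2d3. A direct test of whether the FOS difference was unequal in CA1 and VIP called 0 of 31 members in edgeR (0% of all genes). Before adjustment 2 members, Cacna1h and Cacna1i, had p under 0.05 (6.84% of all genes).

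FOS- nuclei of exposed mice were also compared with HC nuclei of the same type. edgeR called 0 of 27 members in CA1, 0 of 30 in VIP and 0 of 27 in Sub, and 0% of all genes in each. Before adjustment 1, 3 and 0 members had p under 0.05 (5.03%, 6.06% and 4.37% of all genes). DESeq2 called 1, 2 and 0 (1.81%, 2.42% and 2.29% of all genes), and limma called 0 in each (0%). The medians of the members were -0.003 in CA1, -0.4 in VIP and 0.704 in Sub, beside -0.001, -0.019 and 0.071 for all genes. In VIP, Cacna1i had 177 counts in HC and 0 in FOS-, at least 52.1-fold lower (adjusted p = 0.753 in edgeR). In Sub, Cacna2d1 was at 220.9, 407.9 and 399.6 CPM in FOS- and at 184.3 and 158.0 in HC (log2 fold change 1.02). Cacna2d3 was the reverse in Sub, at 11.1, 83.0 and 86.9 against 181.1 and 159.8 CPM (-1.48). In Sub, 1 member was higher and 2 lower in every FOS- mouse, against 7.26% and 9.9% of all genes.

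In DG, Cacnb1 was the only channel gene that edgeR called between home cage and exposed mice. Cacnb1 encodes a calcium channel β subunit known from skeletal muscle and also made in brain. In HC, the mouse with 18 nuclei had 0.731 CPM, with counts in 2 nuclei, and the mouse with 5 nuclei had 0 counts. The only other HC granule nuclei, 1 in each of 2 more mice, had 1 and 0 counts. The 1 h mouse had 24.6 CPM in FOS- nuclei, with counts in 9 of 27, and 84.6 CPM in FOS+ nuclei, with counts in 12 of 26. The 4 h mice had 33.4 and 48.0 CPM and the 5 h mice 41.0, 10.1, 76.0 and 88.1. In A>A the 6 FOS- mice ran from 25.5 to 156.7 CPM with a median of 35.8, and the 6 FOS+ mice from 30.6 to 75.0 with a median of 64.2. In A>C the FOS- mice had 60.1 and 35.0 CPM and the FOS+ mice 16.5 and 44.7. All 24 exposed libraries, from 19 mice, were thus above both HC mice, and 242 of 533 exposed nuclei had counts.

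In edgeR's quasi-likelihood test Cacnb1 rose in 1 h FOS+ nuclei over HC by a log2 fold change of 7.82 (SE 1.440, adjusted p = 0.0166), on 2975 against 16 counts. It rose at 4 h by 6.82 (SE 1.335, adjusted p = 0.0291 in edgeR) and at 5 h by 6.94 (SE 1.310, adjusted p = 0.0253 in edgeR). In 1 h FOS- nuclei the log2 fold change was 5.74 (SE 1.337, p = 0.000365 before adjustment, adjusted p = 0.81 in edgeR). It was the only called member of 35 tested in each of the first 3 comparisons, beside 0.27%, 0.246% and 0.262% of all genes. In the same order DESeq2 called 5, 2 and 7 members (10.1%, 5.43% and 11.1% of all genes) and limma 0, 1 and 5 (3.52%, 3.96% and 10.8%). The 1 h FOS- comparison called 0 members in edgeR (0.0041% of all genes) and 1 before adjustment at p under 0.05 (2.8%), with 2 in DESeq2 (3.2%) and 0 in limma (0.247%). The 3 calls share the same 2 HC mice and were lost without the HC mouse of 5 nuclei, at adjusted p = 0.213, 0.325 and 0.238 in edgeR. Without the HC mouse of 18 nuclei they were kept, at 0.0113, 0.0146 and 0.013. The 4 h call was also lost without either 4 h mouse, at 0.0604 and 0.104.

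On mean log2(TPM + 1) per mouse the differences of Cacnb1 were 2.12, 1.79 and 1.40, with limma adjusted p = 0.163, 0.144 and 0.131. With the 2 mice of 1 nucleus added to HC, a choice made after the data were seen, they were 7.88, 6.87 and 7.00, with edgeR adjusted p = 0.00152, 0.0029 and 0.00166. HC and the 4 h and 5 h mice were in different cohorts, so time cannot be told apart from cohort and from the ARC sort. HC and 1 h granule nuclei were of the same cohort, but were sorted on different dates, and the 1 h group was 1 mouse. Cacnb1 in CA1 averaged 41.8 CPM in HC and 14.1 in 1 h FOS- nuclei, with HC mice from 0 to 122 CPM, and in VIP 3.47 and 4.15. In Sub the HC mean was 1.83 CPM and the 1 h FOS- mean 56.5, and the groups overlapped at 0. Cacnb1 overlaps Gm11629 on the other strand, whose reads cannot be told apart from its own.

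**Figure D4:**
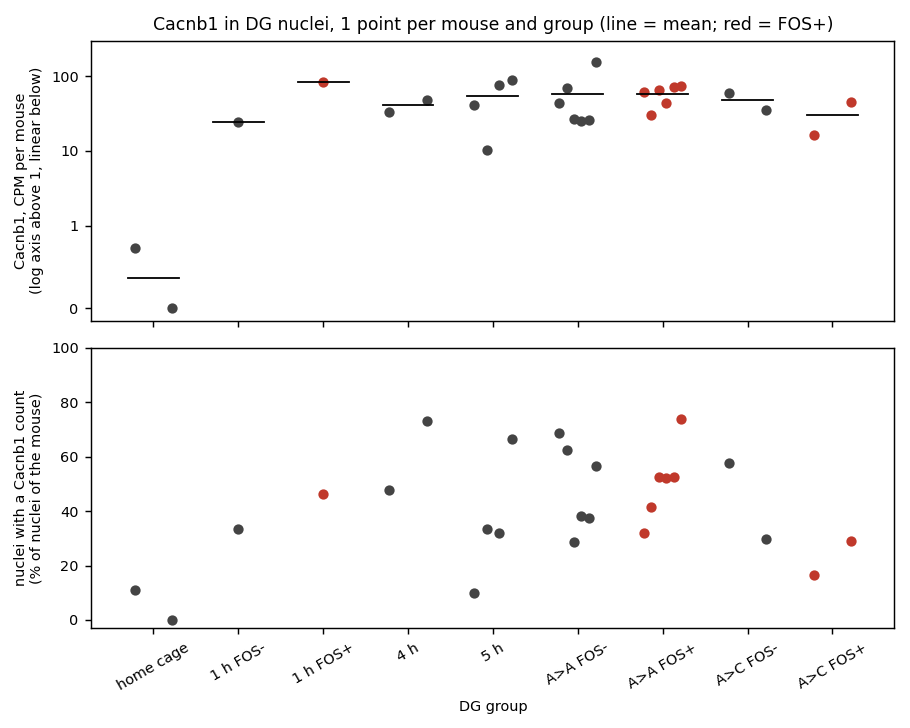
Cacnb1 in granule nuclei, with CPM per mouse (upper panel, vertical; linear below 1 and log above) and percent of nuclei with a count (lower panel, vertical) in 9 groups (horizontal; red, FOS+). Both HC mice lie below 1 CPM and the 24 exposed libraries between 10.1 and 157 CPM.

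Cacna1e, the leading pore of granule cells, was not called by edgeR in any granule cell comparison. It was at 1071 and 1200 CPM in HC, 973.9 in FOS- and 1253 in FOS+ nuclei of the 1 h mouse, and 1483 and 1282 at 4 h. At 5 h it was 2224, 562.7, 1894 and 1910 CPM. A>A mice ran from 1257 to 1909 in FOS- and from 1197 to 1956 in FOS+ nuclei, and the 2 A>C groups had 2067 and 1864 against 1359 and 1275. The HC values lay below those at 4 h and in A>A FOS- nuclei and inside the range at 5 h.

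For other granule cell members no difference between a time point and HC passed edgeR's test. Cacna1h, a T-type pore, was 164.8 and 87.9 CPM in HC and 0, 0, 35.8 and 23.1 at 5 h, so that the groups did not overlap (log2 fold change -3.22, SE 1.408, adjusted p = 0.463 in edgeR). Scn3b was 652.2 and 329.1 CPM in HC and 6.4, 35.7, 251.1 and 189.9 at 5 h (-2.12, SE 0.837, adjusted p = 0.416 in edgeR). Scn9a had 557 counts in HC and 43 at 5 h (-4.78, adjusted p = 0.457 in edgeR), and Cacna1g had 602 counts in HC and 1 at 5 h (adjusted p = 0.294 in edgeR). limma called 5 members lower at 5 h, Cacna1h, Cacng2, Cacng8, Scn3b and Scn9a, beside 10.8% of all genes called in either direction. DESeq2 called other members, with Cacna1g lower and Cacna1a, Cacna1f, Cacna1i, Cacnb1, Cacnb3 and Cacng7 higher at 5 h (11.1% of all genes). For Cacna1h the limma difference was -2.39 (adjusted p = 0.00246) and for Scn3b -2.83 (adjusted p = 0.00826). At 5 h, 1 member was higher and 4 lower in every mouse, against 6.35% and 6.86% of all genes, and the 5 h nuclei had the lowest median total of the granule groups. The part of that depth in the lower values was not tested. At 4 h, where totals were highest, 8 members were higher and 6 lower in both mice, against 22% and 10.4% of all genes. Cacna1a was 23.1 and 31.9 CPM in HC and 100.9 and 165.1 at 4 h (2.54, SE 0.824, adjusted p = 0.475 in edgeR), and 132.4, 23.0, 179.7 and 122.5 at 5 h. Cacng2 had 1576 counts in HC and 249 at 4 h (-4.78), and Cacna1f 0 and 630, at least 32.1-fold more at 4 h.

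FOS+ and FOS- granule nuclei at 1 h came from 1 mouse, so the comparison rests on the spread of the other groups. edgeR called 0 of 35 members there (0.0451% of all genes), and before adjustment 3 had p under 0.05 (3.02%), with 3 called by DESeq2 (5.87%) and 1 by limma (0.625%). Scn3b was 762.8 CPM in FOS- and 72.8 in FOS+ nuclei, and its difference in mean log2 was -5.11 (SE 1.119, adjusted p = 0.0263 in limma). Its edgeR log2 fold change was -3.09 (SE 1.540, adjusted p = 1). Scn3b was also lower on the log2 scale in FOS+ nuclei of all 3 CA1 mice, by 2.05, 0.60 and 2.02, and of both CA3 mice, by 1.33 and 2.00. In the 3 Sub mice it was higher, by 1.76, 1.58 and 0.78. These within-mouse values of Scn3b were chosen after they were seen, and its edgeR adjusted p was 1 in CA1, 0.939 in CA3 and 1 in Sub. Cacng3 was 206.0 and 23.9 CPM (log2 fold change -2.81, SE 0.827, adjusted p = 0.84 in edgeR and 0.00858 in DESeq2). Cacnb3 had 1285 counts in FOS- and 2 in FOS+ nuclei. Going the other way, Cacna1f, a pore known from retina, had 0 counts in FOS- and 386 in FOS+, at least 143-fold more, and Cacng6 0 and 355, at least 131-fold more. The adjusted p of these last 3 was 1 in edgeR.

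In mice returned to context A, edgeR called 0 of 35 members between FOS+ and FOS- nuclei (0.041% of all genes), and before adjustment 3 had p under 0.05 (15.4%), with 0 called by DESeq2 (4.57%) and 1 by limma (1.86%). That member was Scn2a1, the axonal sodium pore, described here after its values were seen. Its mean log2(TPM + 1) was 4.69, 5.48, 5.38, 5.18, 4.80 and 5.51 in the 6 FOS- mice. In the 6 FOS+ mice it was 3.61, 3.72, 4.28, 4.06, 4.05 and 2.79, so the groups did not overlap. The difference was -1.42 (SE 0.319, adjusted p = 0.0162 in limma). Scn2a1 was counted in 125 of 129 FOS- and 110 of 130 FOS+ nuclei. In the 4 mice that gave both kinds of nuclei, the FOS+ value was lower by 1.11, 1.12, 0.75 and 2.72 on the log2 scale.

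On summed counts the Scn2a1 groups overlapped, at 294.9 to 430.7 CPM in FOS- and 152.3 to 317.6 in FOS+, and edgeR gave -0.59 (SE 0.232, adjusted p = 0.273). Scn2a1 was also lower in FOS+ nuclei of the 1 h mouse, at 4.51 against 6.27 log2(TPM + 1), and in A>C, at 4.55 and 4.02 against 5.25 and 4.85. The HC mice were at 5.92 and 5.63 and the 4 h mice at 5.66 and 5.22. Median totals were 2133171 counts in A>A FOS- and 1667494.5 in FOS+ nuclei, and the part of depth was not tested. Of 35 members, 1 was higher and 3 were lower in FOS+ nuclei of all 4 A>A mice on that scale, where 5.14% and 10.6% of all genes were. Cacnb1 was higher by 0.80, 0.71, 1.16 and 0.36, Cacnb2 differed by -1.96, -1.49, -0.93 and -0.08, and Scn3a by -0.89, -0.29, -0.49 and -1.24. In the 1 h mouse these differences were 1.38, -2.11 and -2.42 in that order. Within the same 4 A>A mice Scn3b differed by 1.15, -1.30, -0.71 and -0.05, and Cacng3 by -1.67, -1.61, 0.67 and -1.27.

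In mice taken to another context, edgeR called 0 members between FOS+ and FOS- nuclei (0% of all genes), and before adjustment 1 had p under 0.05 (4.46%), with 1 called by DESeq2 (5.9%) and 0 by limma (0.544%). With 2 mice a group, 4 members were higher and 7 lower in both FOS+ mice, against 15.5% and 18% of all genes. Cacng3 was 338.6 and 322.4 CPM in FOS- and 78.0 and 119.9 in FOS+ nuclei (-1.67, SE 0.561, adjusted p = 0.899 in edgeR). The others of largest fold change were Cacnb3 (2.08), Cacna2d3 (-1.95), Cacna1b (1.78) and Cacna1a (-1.19). The FOS difference of Cacng3 was 1.34 (SE 0.636) higher in A>A than in A>C, with p = 0.0487 before adjustment and an adjusted p of 1 in edgeR. In that test of unequal FOS differences 0 of 35 members were called (0% of all genes), and Cacng3 was the only one with p under 0.05 before adjustment (4.38% of all genes).

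The 2 contexts were then compared within one FOS group. Among FOS+ nuclei, A>A against A>C gave 0 called members in edgeR (0% of all genes) and 1 with p under 0.05 before adjustment (4.94%), with 0 in DESeq2 (5.81%) and 0 in limma (0.0371%). In every A>A mouse 1 member was higher and 2 were lower, against 2.54% and 3.07% of all genes. Cacng7 had 9 counts in A>A and 184 in A>C (-6.15, adjusted p = 0.802 in edgeR), Cacnb2 a log2 fold change of -1.19 and Cacna2d4 of 0.58. Among FOS- nuclei edgeR again called 0 (0%), with 1 under 0.05 before adjustment (4.88%), 0 in DESeq2 (2.96%) and 0 in limma (0.00618%). In this comparison 4 members, against 3.32% of all genes, were lower in every A>A mouse. These were Cacna1h (-1.10), Cacna1a (-0.54), Cacna1e (-0.31) and Cacna2d1 (-0.23). A>A FOS- nuclei were also compared with 5 h nuclei, from which they differ by the second visit, by mouse and in depth. Median totals were 2133171 counts in A>A FOS- and 426841 in 5 h nuclei, and the part of depth was not tested. Here edgeR called 0 members (0% of all genes), and 6 had p under 0.05 before adjustment (10.7%). DESeq2 called 3 (5.78%) and limma 0 (0.068%).

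**Figure D5:**
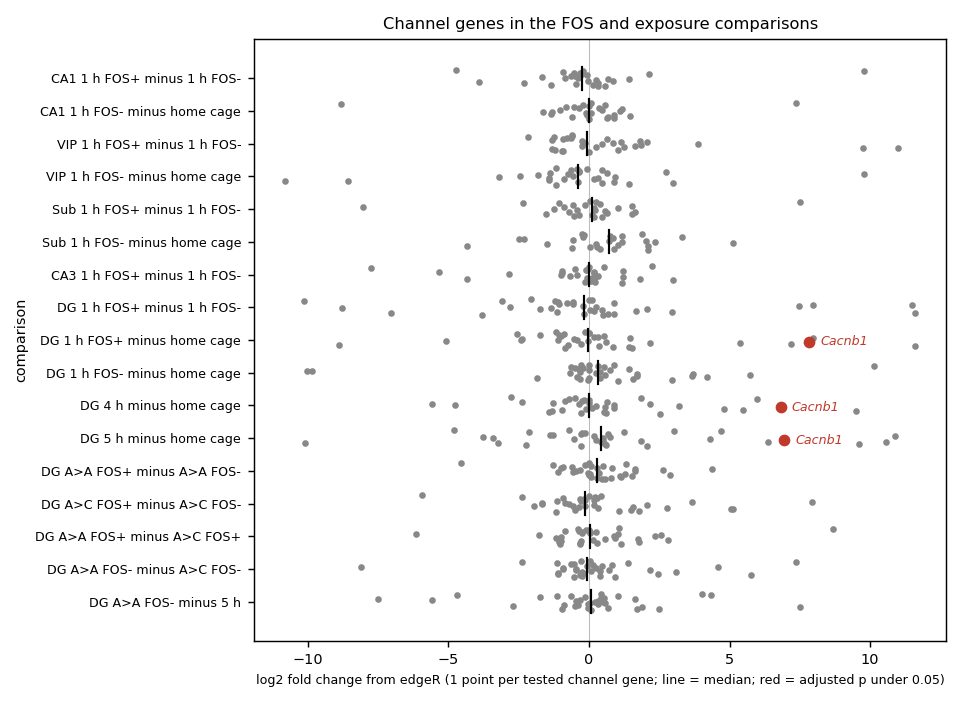
Each point is the edgeR log2 fold change (horizontal) of 1 tested channel gene in a FOS or exposure comparison (vertical). A line marks the median of the members, and called genes are in red. The only red points are Cacnb1, at 7.82, 6.82 and 6.94 for the FOS+ nuclei at 1 h and the mice at 4 h and at 5 h, each against HC.

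Genes that act with these channels were read from a list of 35, which holds ankyrins, FGF homologous factors, calmodulins and CaM kinases, RIM proteins and small GTPases. edgeR called 1 of 31 tested between DG and VIP (0.722% of all genes), Calm2, a calmodulin gene, which was higher in DG by a log2 fold change of 2.32 (SE 0.543, adjusted p = 0.043). That call was kept without 1 of the VIP mice (adjusted p = 0.0246 in edgeR) and lost without any other DG or VIP mouse, at 0.0669 to 0.198, and without the VIP libraries at 0 for Vip, at 0.187. It called 1 of 34 at 5 h against HC (0.262% of all genes), Ank2, which encodes a membrane anchor and was higher at 5 h by 1.25 (SE 0.245, adjusted p = 0.0331). That call was lost without the HC mouse of 5 nuclei, at a log2 fold change of 0.91 (adjusted p = 0.46 in edgeR), and without 1 of the 5 h mice (adjusted p = 0.0643), and was otherwise kept, at 0.00761 to 0.0464. In the other comparisons edgeR called 0 of the 29 to 34 that were tested.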

How the data were processed

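Nuclei were amplified by SmartSeq2 and sequenced as unstranded single-end reads. Per the labels and the study's methods, the authors trimmed reads with Solexa-QA++, aligned them to mm10 with Bowtie and estimated gene levels with RSEM. They deposited a table of expected counts per gene, which holds whole numbers, and a table of log2(TPM + 1) per nucleus. Tool versions were not given in the sources used here.

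From these files, nuclei with under 100000 aligned reads or 4000 genes (log2(TPM + 1) above 1) were left out. So were 35 FOS- nuclei of the first cohort with Arc above 2.5. These thresholds were those of the study. Second-cohort nuclei, all sorted as ARC+, were not filtered on Arc. Nuclei were grouped by the labels' cell type, exposure and FOS state, and counts were summed per mouse. Sums under 2 nuclei were left out. edgeR 4.0.16 (quasi-likelihood test, TMM scaling, filterByExpr, R 4.3.3) was fitted to all genes, with p-values adjusted by Benjamini-Hochberg and called under 0.05. A single model held all baseline types, another each of CA1, VIP, Sub and CA3, and another all DG groups, so that groups of 1 mouse were assumed to vary like the others. In all, 23 comparisons and 2 tests of unequal differences were made. DESeq2 1.42.0 on the sums and limma 3.58.1 on mean log2(TPM + 1) per mouse were alternatives, and 143 alternatives were planned and 15 added after the data were seen. The scripts were tested on simulated counts that varied less between libraries than the real ones. That test checked the code and does not measure error or power in these data. Other values were computed with Python 3.11.15, pandas 2.3.3 and numpy 2.4.6 and drawn with matplotlib 3.10.9.

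The naming rule took all members called by edgeR in a comparison. Where fewer than 5 were called, it added those of largest fold change whose mice did not overlap, up to 5 in all. With 1 mouse in a group, it added those of largest fold change with at least 50 counts. All called members are named, but not all that the rule added. Members outside the rule are also given, among them Cacna1a at 4 h and Scn3b and Cacng3 between granule FOS groups at 1 h. Where a count of 0 gave a limit, 3 counts over the group were used, which covers counting error only. The members and the list of partner genes were chosen with earlier results of these data known. FOS+ and FOS- libraries of the same mouse form pairs by design, and their deviations correlated by 0.0133 to 0.0547 on average. RefSeq sequences were matched by symbol. Values of 2 members are not reported here singly, though counts over all members include them.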

Additional observations from a re-analysis of the deposited data

Results flagged for a closer look

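Of 26 sets of 4 to 10 mice tested by Dixon's ratio, 3 held a mouse that the ratio flagged. The ratio's usual rate of about 1 in 20 does not apply here. Some sets hold several mice tied at 0, and the sets were of members named by their values. In CA1, 1 HC mouse had Cacna1a at 7.76 log2(TPM + 1), with the nearest of the other 5 mice at 5.07. In VIP, the 1 h mouse whose 2 nuclei lacked all VIP markers had Cacna2d3 at 0, with the nearest of the others at 5.12. Among 5 h granule mice, 1 had Cacna1g at 0.02 and the other 3 were at 0. The 4 mice held 1 count of it in all, so that flag rests on 1 count.

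FOS+ and FOS- nuclei of the same mouse differed in opposite directions between cell types for a pair of members, counting only types in which every mouse moved by more than 0.5 on the log2(TPM + 1) scale. Cacna1g was higher in FOS+ nuclei of the 3 Sub mice, by 2.40, 6.40 and 0.58, and lower in the 2 CA3 mice, at -2.35 and -1.04. Scn3b was higher in FOS+ nuclei of the 3 Sub mice, by at least 0.78, and lower in CA1, where the smallest difference was -0.60, and in CA3, where it was -1.33. Neither difference between cell types was tested, and 2 of these mice gave nuclei to all 3 types.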

How the results depend on the processing

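The number of channel genes called by edgeR was kept within 1.5 times under DESeq2 size factors (23 of 23 comparisons), with no filter on low counts (23 of 23), with exposure as a covariate (6 of 6), with at least 5 nuclei per sum (5 of 5), with FOS- nuclei kept whatever their Arc level (7 of 7), with 2 mice split by sort date (3 of 3) and, added after the data were seen, with sums of 1 nucleus or more (4 of 4). With a replicate block for the mouse, in which FOS+ and FOS- libraries of 1 mouse were paired, 0 members were called in all 5 comparisons, as without it. With the mouse as a replicate block in limma over the cell types, added after the data were seen, 4 were called in DG against VIP, 2 in VIP against CA1 and 2 in Ivy against VIP, as in limma without it, and 0 in the other 3. Without the VIP libraries at 0 for Vip, also added then, edgeR called 2 in Ivy against VIP, Cacna2d1 and Cacna2d3, and as many as before in the other 4 comparisons of VIP. DESeq2 called 4 members in DG against CA1, 5 in DG against VIP, 3 in VIP against CA1, 3 in Sub against CA1 and 5 in Ivy against VIP. It called 1 for FOS in CA1 and 1 in VIP, and 1 in CA1 and 2 in VIP for FOS- against HC. In DG it called 3 for FOS at 1 h, 5 for 1 h FOS+, 2 for 1 h FOS-, 2 for 4 h and 7 for 5 h against HC, 1 for FOS in A>C and 3 for A>A FOS- against 5 h. DESeq2 called 16% of all genes in Ivy against VIP, 10.1% in 1 h FOS+ and 11.1% in 5 h against HC. limma on mean log2 values called 4 in DG against VIP, 2 in VIP against CA1 and 2 in Ivy against VIP, and in DG 1 for FOS at 1 h, 0 for 1 h FOS+ against HC, 5 for 5 h and 1 for FOS in A>A. At 4 h limma called 1, as edgeR did, but it was Cacna1h in place of Cacnb1. The cause of these differences was not tested. Leaving out 1 mouse gave 0 to 1 calls in Ivy against VIP, 0 to 2 for 1 h FOS+, 0 to 1 for 1 h FOS-, 0 to 2 for 4 h and 0 to 2 for 5 h against HC. The second call was Cacnb4 and came without the HC mouse of 18 nuclei, and the losses of Cacnb1 and Cacna2d3 are given with their values above. In the other comparisons the number called was the same without any 1 mouse. With no threshold on reads and genes, Cacna2d4 in VIP moved to 3.52 log2(TPM + 1), over 1 SD, and the other levels stayed within 1 SD. By CPM, which is not scaled for length, the leading member of a family was the same in 27 of 36 pairs of family and cell type. The same 13 members averaged below 1 log2(TPM + 1) in all 6 types, and the part of depth in this was not tested. The comparison of Ivy with VIP had no value at 5 nuclei or more.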
